A study of Danio rerio with 4 samples.

Results

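Translation factors and splicing factors were followed in zebrafish eyes after the optic nerve was severed. A member was any zebrafish spot on the array whose gene symbol begins with eif, eef or pabp followed by its usual suffix (translation), or with snrp, sf3, srsf, hnrnp, u2af, lsm or prpf (splicing). This gave 291 spots for 123 genes, of 5546 genes with a symbol on 9061 spots. Of the members, 63 genes on 180 spots were translation factors and 60 genes on 111 spots were splicing factors. The rule uses names and no measured value, and it was set with earlier results of these data known. Members, such as the lsm genes, were thus assigned to splicing or translation by name alone, whether or not each acts there. Of the member genes, 68 had more than 1 spot and 55 had 1. Spots of 1 gene read the same RNA and are not independent of each other.

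The injured eyes came from wild-type pet-store fish of the zdr line whose eye muscles were cut and whose optic nerve was severed. The sham eyes came from fish of the same kind whose eye muscles were cut and whose nerve was spared, so both groups carry the muscle wound. All fish were kept on a 12 h light and dark cycle. RNA was taken 3, 24 or 168 h after surgery from whole eyes without lens and sclera, and was pooled from several fish. On each of 9 arrays with 2 dye channels 1 injured pool was set against 1 sham pool, with 3 arrays per time. A further 2 arrays set pools of unoperated control fish against each other, and both of these arrays hold the same pool on 1 side. In bulk eye RNA, fewer cells of a type and less RNA per cell cannot be told apart.

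Eukaryotic initiation factors bring the ribosome to the capped end of a messenger RNA and to its start codon. Elongation factors then carry aminoacyl-tRNA to the ribosome and move it along the message. Splicing factors remove introns from the nuclear transcript before it is exported: small nuclear ribonucleoproteins (snRNPs) recognise the splice sites, while SR proteins and hnRNP proteins steer which sites are used. Zebrafish regrow their retinal axons after such a cut, a process that draws on protein synthesis in the retinal ganglion cells.

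Every value below is a log2 ratio of injured over sham. Array values are given after removing the gene's dye effect, the constant excess of Cy5 over Cy3 that the fit across all 9 arrays estimated. The control arrays are outside that fit, and the same dye effect was subtracted from them. The standard error (SE) comes from the same fit and rests on 3 arrays per time and on the spread pooled over times. P-values are from limma and are adjusted over all zebrafish spots. A gene with several spots is represented by its brightest spot. A spot counts as detected when its foreground exceeds the 95th percentile of the empty positions in that channel of that array. Injured RNA was in Cy5 on array 3 at 3 h, array 3 at 24 h and array 2 at 168 h, and in Cy3 on the others, per the array names.

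The SD of the log2 ratios over spots was 0.67 to 0.92 on the 9 injured arrays, and 0.62 and 0.74 on the control arrays. Between 17.2% and 44.8% of spots were detected in Cy5 and between 38.7% and 71.9% in Cy3. Both channels were detected on at least 5 of the 9 arrays for 39 of 63 translation genes (61.9%) and 27 of 60 splicing genes (45%), against 1765 of 5546 genes in all (31.8%). They were detected on none of the 9 arrays for 8 translation and 15 splicing genes. The rod genes rho, gnat1 and pde6a were detected on both sides of all 9 arrays, saga on 8 and rom1b on 4. Among others, the muscle genes acta1b and mylpfa and the epithelial genes krt5, krt8 and krt97 were also detected on both sides of all 9. The same held for the blood gene hbaa1. Rod transcripts were thus present beside those of other tissues.

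In limma no translation or splicing gene passed an adjusted p of 0.05 at any time, and neither did any other spot: the share called was 0% at 3, 24 and 168 h, for the average over times and for each difference between times. The smallest adjusted p among translation genes was 1 at 3 h, 0.956 at 24 h and 0.397 at 168 h. Among splicing genes it was 1, 0.971 and 0.56. The values that follow therefore describe levels and their spread over 3 pairs of pools per time, and none of them is a called change.

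The translation factors as a group stayed near the array median. Their median log2 ratio was 0.05 at 3 h, 0.02 at 24 h and 0.05 at 168 h, with 35, 36 and 33 of 63 genes above 0. The splicing factors had medians of 0.02, 0.22 and -0.01, with 32, 42 and 30 of 60 genes above 0. Over all genes with a symbol the medians were -0.00, -0.00 and 0.00, with 2773, 2763 and 2780 of 5546 above 0. The 24 h value of the splicing factors was thus the one that lay apart from the median of all genes. On the 3 arrays of that time it was 0.15, 0.19 and 0.10, each above 0. It was 0.07 in the authors' deposited table and 0.15 when dim spots were left out.

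Set side by side, the translation median was above the splicing median on 3 of the 9 arrays. At 3 h the translation medians were -0.01, 0.09 and -0.04 on arrays 1, 2 and 3, and the splicing medians were 0.05, -0.04 and 0.07. At 24 h the translation medians were 0.11, 0.01 and 0.02, against splicing medians of 0.15, 0.19 and 0.10. At 168 h they were -0.00, 0.07 and -0.12, against 0.17, 0.03 and -0.21. Translation was the lower of both groups on all arrays at 24 h and showed no common order at 3 or 168 h. On the control arrays the translation medians were -0.11 and -0.29 and the splicing medians were -0.05 and 0.06. The gap between the groups was therefore -0.35 on a control array, beyond the widest gap of -0.18 on an injured array.

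**Figure D1:**
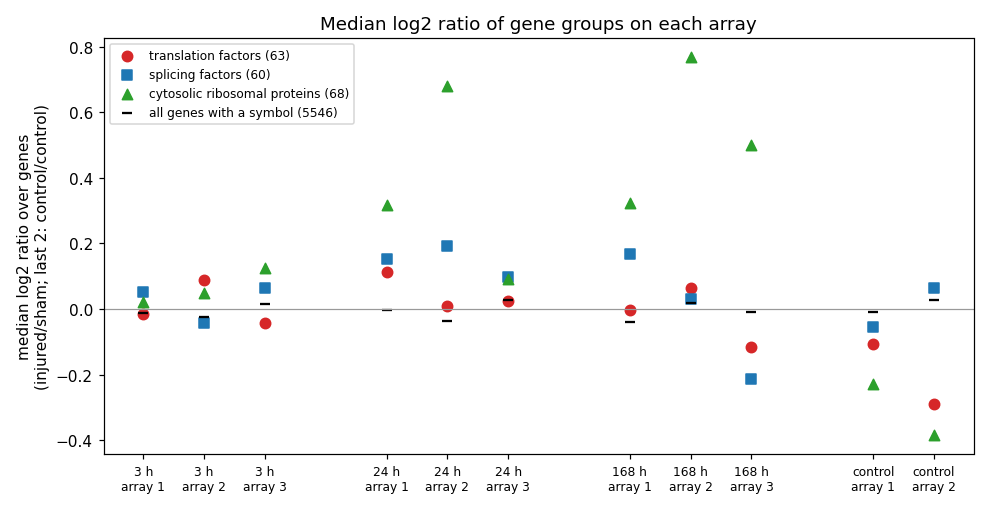
Median log2 ratio (vertical axis, injured over sham, or control over control) of 63 translation genes, 60 splicing genes, 68 cytosolic ribosomal protein genes and 5546 genes with a symbol on each array (horizontal axis). Splicing medians lie at 0.15, 0.19 and 0.10 at 24 h, translation medians between 0.01 and 0.11 there, and ribosomal medians reach 0.68 at 24 h and 0.77 at 168 h on array 2 of each time.

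Single genes also differed between pools of unoperated fish. The median size of a translation gene's log2 ratio, taken before the dye effect was removed, was 0.328 to 0.535 on the 9 injured arrays and 0.313 and 0.467 on the control arrays. For splicing genes it was 0.304 to 0.499 on the injured arrays and 0.309 and 0.444 on the control arrays. In both groups of genes 1 control value lay inside the range of the injured arrays, and the other was below it for translation genes and inside it for splicing genes.

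At an unadjusted p under 0.05, few members stood apart from 0. At 3 h none of the 63 translation genes did so in either direction, where 2.3% of all zebrafish spots lay above 0 and 2.18% below. Of the splicing genes, 2 lay above (snrpa1, srsf5a) and 3 below (lsm12a, lsm14b, hnrnpul1) at 3 h. At 24 h 1 translation gene lay above (eef1a1l1) and 3 below (eif4g2a, eef1a2, eif2b1), and 1 splicing gene above (hnrnph1l) and none below, against 2.23% of all spots above and 2.77% below. At 168 h 3 translation genes lay above (eef1a1l1, eef2b, eif3ea) and 3 below (eef1a1a, eef2k, eif4g3a), and 2 splicing genes above (srsf6a, prpf18) and none below, against 4.23% above and 3.6% below. The shares for translation genes at 168 h, 4.76% in each direction, are near that background. Many of the named genes rest on dim spots, with both channels detected on fewer than 5 of the 9 arrays. These were snrpa1, srsf5a, lsm12a, lsm14b and hnrnpul1 at 3 h, and eef1a2, eif2b1 and hnrnph1l at 24 h. At 168 h they were eef2k, eif4g3a, srsf6a and prpf18.

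Counted by spot, the values above 0 at 168 h were spread unevenly over the roles, a difference that was not tested. Of the 180 translation spots, 14 (7.78%) lay above 0 at an unadjusted p under 0.05, against 4.23% of all spots. Another 3 (1.67%) lay below 0, against 3.6% of all spots, and 1 of them was the spot of eef1a1a. All 14 spots above 0 belong to elongation factors or to initiation factor 3. Elongation factors held 9 of them, on 34 spots (26.5%) and in 4 genes. Initiation factor 3 held 5, on 40 spots (12.5%) and in 4 genes. Both channels were detected on at least 5 of the 9 arrays for 5 of these elongation spots. For initiation factor 3 this held for 4. Without array 2 of 168 h the elongation count was 2, and without array 1 of 168 h the count for initiation factor 3 was 3. Several spots of a gene read the same RNA, so these counts are not counts of independent measurements. No spot of the cap-binding, poly(A)-binding or start-codon factors or of the exchange factor eIF2B was among them.

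**Figure D2:**
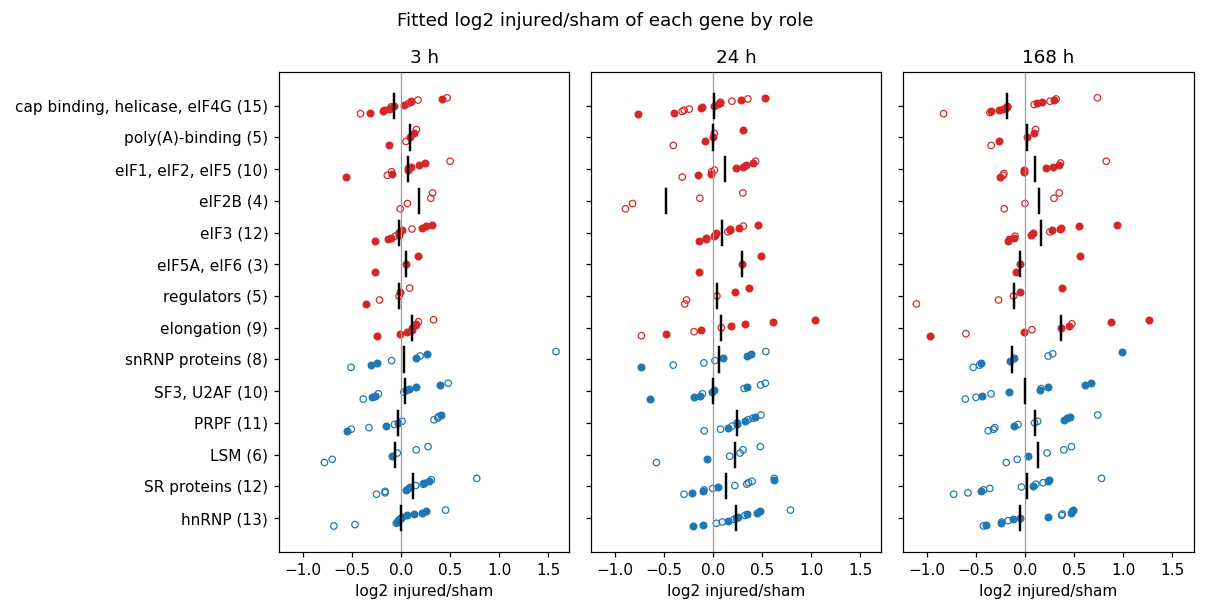
Fitted log2 ratio of injured over sham (horizontal axis) for each of the 123 genes at 3, 24 and 168 h, grouped by role (vertical axis). Filled points had both channels detected on at least 5 of 9 arrays, open points on fewer, and black lines are medians of a role. The elongation factors span -0.97 (eef1a1a) to 1.26 (eef1a1l1) at 168 h.

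The elongation factors comprised 9 genes on 34 spots, with medians of 0.11, 0.08 and 0.37 at 3, 24 and 168 h. The gene eef1a1l1 encodes an elongation factor 1-alpha, the protein that delivers aminoacyl-tRNA to the ribosome. Its log2 ratio at 3 h was -0.17, 0.18 and 0.17 on arrays 1, 2 and 3. At 24 h it was 0.79, 1.77 and 0.55, and at 168 h it was 0.99, 1.63 and 1.15. All 6 later arrays lay above all 3 arrays of 3 h, but only after the dye effect was removed. Before its removal array 3 of 3 h stood at 0.90. That was above array 1 of 24 h at 0.07 and arrays 1 and 3 of 168 h at 0.27 and 0.43. The share of all spots whose arrays separate between times in this way was not counted. This limit holds for each such separation given below. The fitted values were 0.06 ± 0.32 at 3 h, 1.04 ± 0.32 at 24 h (SE, n = 3 arrays, limma adjusted p = 0.956) and 1.26 ± 0.32 at 168 h (adjusted p = 0.397), the last a 2.39-fold ratio. The difference of 168 h from 3 h was 1.20 ± 0.45 (limma adjusted p = 0.928).

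As scanner signal after background correction and normalisation, eef1a1l1 had 5243, 9933 and 3358 in injured eyes at 168 h, against 4340, 1942 and 2493 in sham eyes on the same arrays. The widest gap, on array 2, fell on the array whose injured RNA was in Cy5. The dye effect of this spot was 0.72 (limma adjusted p = 0.0267), and without its removal the ratio was still above 0 on all 3 arrays of 168 h. A second detected spot of the gene gave 1.08, 1.07 and 0.86 at 168 h and a fitted value of 1.01. The remaining spots of eef1a1l1 were dim, with both channels detected on at most 1 array. On the control arrays the brightest spot stood at -0.44 and -0.94 after the dye effect of 0.72 was subtracted. That effect was fitted on the injured arrays, and the control values depend on it. Over the 9 elongation genes the control medians were -0.32 and -0.66 after each gene's dye effect was subtracted, and 0.02 and -0.52 before. At 168 h the rod markers described at the end had a median of -0.74 and the epithelial markers of 0.40. On arrays 1, 2 and 3 the rod medians were -0.19, -1.355 and -1.24, and the epithelial medians were 0.91, -0.12 and 0.47. The part of both marker lists in the result was not tested.

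The gene eef2b encodes elongation factor 2, which moves the ribosome by 1 codon. Its ratio at 3 h was -0.03, 0.01 and -0.00. At 24 h it was 0.46, 0.90 and 0.46, and at 168 h it was 1.18, 1.02 and 0.43. As with eef1a1l1, the arrays of 3 h and of the later times did not overlap after removal of the dye effect, which was 0.52 (limma adjusted p = 0.0716). Before its removal they overlapped: array 3 of 3 h stood at 0.52, and array 3 of 168 h was below 0 at -0.09. The fitted values were 0.61 ± 0.30 at 24 h (SE, n = 3 arrays, limma adjusted p = 0.99) and 0.88 ± 0.30 at 168 h (adjusted p = 0.489), a 1.84-fold ratio. Signals at 168 h were 14661, 31566 and 6009 in injured eyes, against 9314, 10812 and 6397 in sham eyes. Of its 10 spots, 3 were detected on at least 5 arrays, and these gave 0.75 to 0.92 at 168 h. Of all 10 spots, dim ones included, 8 lay above 0. The control arrays stood at -0.32 and -1.04 after the dye effect of 0.52 was subtracted.

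The exchange subunits of elongation factor 1, which recharge elongation factor 1-alpha with GTP, were less even. For eef1g, a structural subunit, the ratios at 168 h were 1.34, 0.34 and -0.33, and the fitted value was 0.45 ± 0.36. Of its other detected spots 1 gave 0.59, and 1 gave 3.13, 1.01 and 0.35 on the arrays of 168 h, a fitted 2.82-fold ratio. For eef1b2, the catalytic subunit, they were -0.25, 1.17 and 0.17, with a fitted value of 0.37 ± 0.36. A dimmer spot, with both channels detected on 3 of 9 arrays, gave 1.43. All 5 spots of eef1b2, dim ones included, ranged from -0.40 to 1.43 at 168 h, with 3 above 0. Both genes had arrays on either side of 0. The control arrays stood at -0.23 and -1.08 for eef1g and at -0.73 and -0.66 for eef1b2. These control values too had the dye effect fitted on the injured arrays subtracted.

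**Figure D3:**
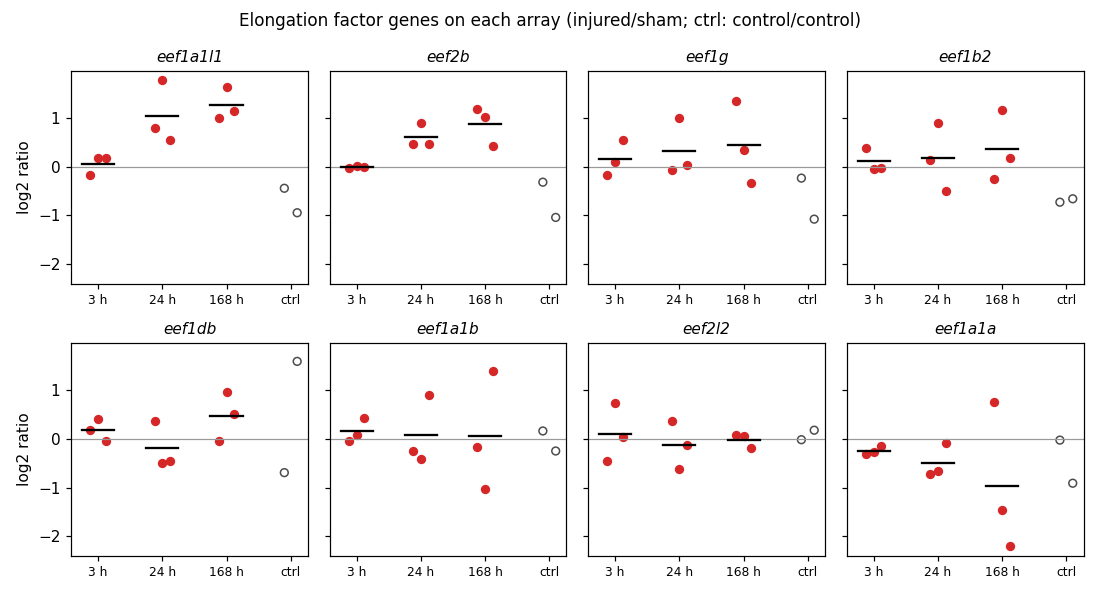
Log2 ratio of injured over sham (vertical axis) for 8 elongation factor genes at each time. Red points are single arrays after removal of the dye effect, and black lines are their means (n = 3). Open grey points are the control arrays after subtraction of the same dye effect. The arrays of eef1a1l1 lie between -0.17 and 0.18 at 3 h and between 0.99 and 1.63 at 168 h, and its control points lie at -0.44 and -0.94.

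Another elongation factor 1-alpha gene, eef1a1a, lay on the other side. Its ratio was -0.31, -0.28 and -0.15 at 3 h and -0.71, -0.66 and -0.08 at 24 h. At 168 h it was 0.76, -1.46 and -2.20, so array 1 ran against the other arrays of that time. The fitted value at 168 h was -0.97 ± 0.44 (SE, n = 3 arrays, limma adjusted p = 0.629). Without array 1 of 168 h it was -1.83, and without array 3 it was -0.35. Signals at 168 h were 1253, 1598 and 887 in injured eyes, against 810, 4026 and 4456 in sham eyes. The elongation factor 1-alpha genes are close in sequence, and how far a probe of 1 gene binds RNA of another was not tested.

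The other elongation genes lay closer to 0 or were dim. The fitted values of eef2l2 were 0.11, -0.13 and -0.02, and those of eef1a1b 0.15, 0.08 and 0.07. For eef1db, another exchange subunit, they were 0.18, -0.19 and 0.47, from a spot detected in both channels on 3 arrays. The spot of eef1a2, the elongation factor 1-alpha of neurons and muscle in mammals, was detected in both channels on none of the 9 arrays.

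Initiation factor 3 holds the small ribosomal subunit ready for the initiator tRNA, and 12 genes for its subunits were present. Their medians were -0.02, 0.09 and 0.16, with 5, 9 and 8 of 12 above 0. For eif3ea, subunit e, the ratio was -0.87, 0.13 and -0.05 at 3 h and 0.21, 0.28 and 0.31 at 24 h. At 168 h it was 0.27, 0.68 and 1.85, with array 3 far above the others. The fitted value at 168 h was 0.93 ± 0.35 (SE, n = 3 arrays, limma adjusted p = 0.554), and without array 3 it was 0.47. Its second detected spot gave -0.11 and carried a dye effect of -2.74. The value of eif3ea therefore depends on which spot is read.

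The subunit genes eif3i and eif3ha showed the same dependence in different degrees. The brightest spot of eif3i gave 0.94, 0.50 and -0.33 at 168 h, while its 4 detected spots ranged over 0.32 to 1.00 in their fitted values. One of these was even, at 0.80, 0.60 and 0.74. The detected spots of eif3ha gave -0.17 and 0.81 at 168 h. For eif3s10, the large subunit a, the ratios at 168 h were 0.91, 0.98 and -0.26, with a fitted value of 0.55 ± 0.37. The fitted values at 168 h were 0.35 for eif3s6ip, 0.27 for eif3d, 0.08 for eif3c, 0.05 for eif3k, -0.11 for eif3hb and -0.16 for eif3ja. A second detected spot of eif3c gave -0.54. The subunit genes thus shared no direction at 168 h.

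**Figure D4:**
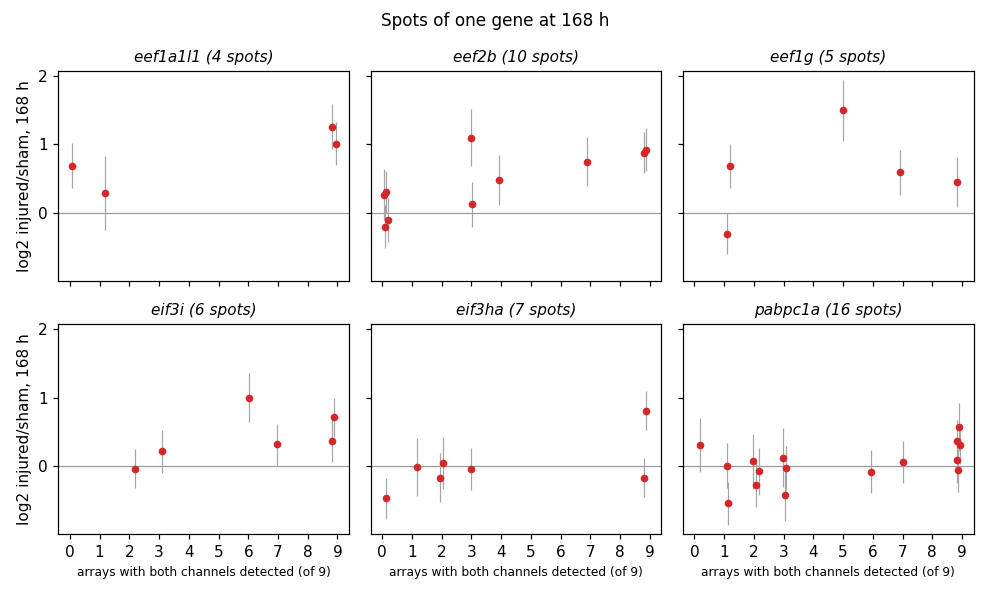
Log2 ratio of injured over sham at 168 h with its SE (vertical axis) for every spot of 6 genes, against the number of the 9 arrays on which both channels of the spot were detected (horizontal axis). The 2 bright spots of eef1a1l1 lie at 1.26 and 1.01, whereas the 2 bright spots of eif3ha lie at -0.17 and 0.81.

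The factors that read the cap and unwind the message showed no common direction, with medians of -0.07, 0.01 and -0.19 over 15 genes. The gene eif4g2a encodes a relative of the scaffold eIF4G that, in mammals, lacks the site for the cap-binding protein eIF4E. Its ratio was 0.04, 0.32 and -0.04 at 3 h and -1.07, -0.86 and -0.36 at 24 h. At 168 h it was -0.44, -0.61 and 0.01. After removal of the dye effect the arrays of 24 h all lay below those of 3 h, a separation not counted over all spots. The fitted value at 24 h was -0.77 ± 0.30 (SE, n = 3 arrays, limma adjusted p = 0.959). Its other spot was above background on no injured side. On the control arrays it stood at 0.64 and 1.33.

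The helicase genes that unwind leaders were near 0 or uneven. For eif4a1b the fitted values were -0.19, 0.07 and -0.19, each with an SE of 0.31. Its 3 detected spots ranged from -0.19 to 0.56 at 168 h. For eif4a2 the ratio at 3 h was 1.54, 0.04 and -0.34 and the fitted value 0.42 ± 0.44, and array 1 alone put it above 0. For eif4a1a the ratio at 168 h was -0.03, 2.35 and -0.12, again carried by 1 array. Among the cap-binding proteins eif4e1c gave -0.17, 0.07 and 0.17, the brightest spot of eif4ea was detected on neither side at 3 h, and eif4e1b gave -0.32 ± 0.31 at 3 h and -0.27 ± 0.31 at 168 h. The dye effect of eif4e1b was -1.89, and without a dye term in the fit its values were 0.31 and 0.36. At 24 h eif4e2rs1 gave -0.28, -0.14 and -0.78, with a fitted value of -0.40 ± 0.32. Without array 3 of that time it was -0.07, in the authors' deposited table it was 0.30, and a second spot detected on as many arrays gave 0.03, so its direction is not settled.

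The poly(A)-binding proteins, whose cytoplasmic members join the tail of the message to the cap complex, had 5 genes on 28 spots. The cytoplasmic pabpc1a had 16 of these spots. Its ratio was -0.01, -0.13 and -0.23 at 3 h, and 0.37, 0.39 and 0.16 at 24 h. At 168 h it was 0.81, 0.34 and -0.88. For this brightest spot the 24 h arrays lay above the 3 h arrays after removal of the dye effect, while those of 168 h spread over both. Its fitted values at 24 h and 168 h were 0.31 ± 0.34 and 0.09 ± 0.34. The 7 detected spots of pabpc1a ranged from -0.22 to 0.41 at 24 h, with a median of 0.00 and 4 above 0. At 168 h they ranged from -0.08 to 0.57. The 24 h separation of the brightest spot is thus not a level shared by the spots of the gene. For pabpc1b the fitted values were 0.09, -0.00 and 0.02 with an SE of 0.29. Its other detected spot gave 0.34 at 168 h.

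Factors of the ternary complex and of start-codon choice numbered 10 genes, with medians of 0.07, 0.12 and 0.10. The alpha subunit of initiation factor 2, whose phosphorylation slows initiation under stress, is encoded by eif2s1a and eif2s1b. For eif2s1a the ratio was 0.67, -0.17 and 0.71 at 24 h and -0.27, -0.20 and -0.31 at 168 h. For eif2s1b it was -0.87, 0.26 and -1.08 at 3 h, with a fitted value of -0.56 ± 0.35. Read by their brightest spots, the pair did not share a direction at 3 or 168 h. The other detected spot of eif2s1a gave -0.02 at 24 h and 0.42 at 168 h, so its direction depends on the spot. The beta subunit gene eif2s2 gave 0.19, 0.31 and 0.29, and the gamma subunit gene eif2s3 had both channels detected on none of the arrays. The scanning factor gene eif1axb gave 0.50, 0.43 and 0.83, and its average over times was 0.59 ± 0.24 (SE, 9 arrays, limma adjusted p = 0.634). That spot had both channels detected on 4 of 9 arrays, and the injured side of its other spot was above background on none.

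In the average over times, 5 of 63 translation genes (7.94%) and none of 60 splicing genes had an unadjusted p under 0.05, against 7.49% of all spots. Besides eif1axb these were eef1a1l1 at 0.79, eef2b at 0.49, eef1a1a at -0.57 and eef2k, the kinase of elongation factor 2. In injured eyes at 168 h eef2k was not above background on any array, against 1 of 3 arrays in sham eyes, so no ratio is given for it. Between times, 3 translation and 2 splicing genes had an unadjusted p under 0.05 for 24 h minus 3 h (4.19% of all spots). For 168 h minus 3 h there were 5 translation and 6 splicing genes (5.03% of all spots), and for 168 h minus 24 h there were 1 and 4 (4.29% of all spots). None passed after adjustment.

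The exchange factor eIF2B, which renews initiation factor 2 after each round, was mostly below detection. Of its 4 genes, eif2b1 and eif2b4 were detected in both channels on no array, and eif2b3 on 1. The remaining gene eif2b2, with both channels detected on 4 of 9 arrays, gave -0.01, -0.14 and -0.21, while its other spot, detected on 2, gave 0.62 at 3 h and 0.17 at 168 h. The hypusine-carrying factor gene eif5a, which helps the ribosome through difficult stretches, had ratios of 0.36, 0.77 and 0.33 at 24 h and 1.35, 0.66 and -0.34 at 168 h. Its fitted values were 0.49 ± 0.34 and 0.56 ± 0.34 (SE, n = 3 arrays, limma adjusted p = 0.99 and 0.735). For eif5a2 they were -0.26, 0.29 and -0.05, and for eif6, which keeps the large subunit apart, 0.18, -0.14 and -0.09. Among the repressors that sequester eIF4E, eif4ebp3 gave -0.36 ± 0.31 at 3 h and 0.36 at 24 h, eif4ebp3l gave -0.01, 0.22 and 0.37, and eif4ebp1 and eif4ebp2 were detected in both channels on no array.

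Among the splicing factors, the hnRNP genes and the prpf genes had the highest medians at 24 h when read by their brightest spots. Over all spots of a role, the 24 h median was 0.096 for hnRNP, 0.2 for prpf and 0.22 for lsm genes. The hnRNP proteins coat nascent RNA, and 11 of 13 genes stood above 0 at 24 h with a median of 0.24. Their medians were -0.00 at 3 h and -0.05 at 168 h. Before removal of the dye effect the hnRNP medians on the arrays of 24 h were 0.31, 0.59 and -0.04. On array 3, 5 of 13 genes were then above 0. The prpf genes encode proteins of the spliceosome and its activation complexes, and 10 of 11 stood above 0 at 24 h with the same median of 0.24. At 3 h and 168 h their medians were -0.03 and 0.10. The count of splicing genes above 0 at 24 h, 42 of 60, was 37 to 44 when single arrays were left out. On the arrays of 24 h the epithelial markers had a median of 0.88 and the rod markers of -0.55, and their part in this count was not tested.

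Single hnRNP genes showed the 24 h level with different evenness. For hnrnph1l the ratio was 0.55, 1.05 and 0.77 at 24 h, and the fitted value was 0.79 ± 0.32 (SE, n = 3 arrays, limma adjusted p = 0.971). Its injured side was detected on 2 and its sham side on 1 of the 3 arrays of that time, so the value rests partly on signal near the background. The brighter hnrnpc gave 0.70, 0.17 and 0.56, with a fitted value of 0.48 ± 0.32, while its other spot gave -0.22. For hnrnpabb the ratio was 0.65, 0.61 and 0.10 and the fitted value 0.45 ± 0.31, and a second detected spot gave 0.86. By contrast hnrnpr gave -0.24, -0.14 and -0.23, with a fitted value of -0.20 ± 0.30. Its second detected spot gave 0.10. All arrays of 24 h were above 0 for the first 3 of these genes and below 0 for hnrnpr, but before removal of the dye effect array 3 of hnrnpabb stood at -0.30 and array 2 of hnrnpr at 0.01.

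At 168 h the hnRNP genes divided. For hnrnpl2 the ratio was 0.17, 0.57 and 0.67, with a fitted value of 0.47 ± 0.31, and its other detected spots gave 0.19 and -0.40. For hnrnpa1b it was -0.10, 0.33 and 1.24, with 0.49 ± 0.33, and without array 3 of that time it was 0.11. For hnrnph1, a regulator of exon choice, it was -0.36, -0.49 and -0.36, with -0.40 ± 0.30. None of these values exceeded its SE by enough to pass the test.

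The SR proteins, which bind exon enhancers and recruit the spliceosome, comprised 12 genes with medians of 0.12, 0.13 and 0.02. At 3 h srsf5a gave 0.85, -0.06 and 1.53, with a fitted value of 0.77 ± 0.36 (SE, n = 3 arrays, limma adjusted p = 1), and without array 3 of that time it was 0.11. At 24 h srsf9 gave 0.53, 1.23 and 0.10, with 0.62 ± 0.32, and without array 2 of that time it was 0.32. At 168 h srsf6a gave 0.91, 0.90 and 0.52, with 0.78 ± 0.29 (limma adjusted p = 0.56). After removal of the dye effect the arrays of srsf6a at 168 h all lay above those at 3 h, which were -0.37, -0.22 and -0.16. Its injured side was detected on 2 and its sham side on 1 of the 3 arrays of 168 h, and the control arrays stood at 0.45 and 0.96. For srsf1a, a classical SR protein, the ratio at 168 h was 0.11, -0.70 and -0.76 with a fitted value of -0.45 ± 0.30, and its 4 detected spots ranged from -0.47 to 0.29. The spots of srsf2a and srsf3a were detected in both channels on no array.

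The Sm and snRNP proteins form the core of the spliceosomal particles, and their 8 genes had medians of 0.03, 0.06 and -0.14. For snrpd3l the ratio at 24 h was -0.78, -0.14 and -1.29, with a fitted value of -0.74 ± 0.36 (SE, n = 3 arrays, limma adjusted p = 0.99), and without array 3 of that time it was -0.25. For snrpd2 it was -0.14, 0.50 and 2.59 at 168 h, with 0.98 ± 0.47, and without array 3 of that time it was 0.18. The snrpd2 spot had a dye effect of -1.49. For snrpa1, a protein of the U2 particle, the ratio at 3 h was 0.30, 2.18 and 2.26, with a fitted value of 1.58 ± 0.44 (limma adjusted p = 1), from a spot detected on 3 injured sides and 1 sham side. The fitted values were 0.27, 0.39 and -0.12 for snrpa and -0.24, 0.34 and -0.45 for snrpb. A second detected spot of snrpa gave 0.74, 0.40 and 0.45. Both snrpc and snrpe were detected in both channels on no array.

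The U2 factors, which mark the branch point and the end of the intron, numbered 10 genes with medians of 0.04, -0.00 and -0.01. For sf3b1, the subunit that clamps the branch point, the ratio was -1.18, -0.02 and -0.72 at 24 h and 1.06, 1.03 and -0.25 at 168 h. The fitted values were -0.64 ± 0.35 and 0.61 ± 0.35, and their difference of 1.25 ± 0.49 did not pass (limma adjusted p = 0.996). Its partner sf3b4 gave -0.90, -0.40 and -0.02 at 168 h, with -0.44 ± 0.30. Fitted values were -0.39, 0.48 and -0.35 for sf3a1 and 0.40, 0.01 and 0.15 for sf3b3. The arrays of sf3b3 at 3 h were 0.04, 0.99 and 0.16, and without array 2 its value was 0.10. Another spot of sf3b3, with both channels detected on 4 of 9 arrays, gave -0.26 at 3 h. The polypyrimidine-tract binders u2af2a and u2af2b gave -0.23, -0.11 and 0.16, and 0.16, -0.14 and -0.16. A second detected spot of u2af2b gave -0.12, 0.51 and -0.02. The partner gene of both binders, u2af1, was detected in both channels on no array.

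Of the prpf genes, prpf19, a ubiquitin ligase of the spliceosome, gave 0.69, 0.11 and 0.42 at 3 h with a fitted value of 0.40 ± 0.32, and fitted values of 0.15 and 0.42 later. For prpf39 they were -0.03, 0.24 and 0.39, for prpf38a -0.15, 0.43 and -0.12, and for prpf6, a bridge within the tri-snRNP, -0.55, 0.32 and 0.46. Of the 6 lsm genes, named after the Sm-like fold of RNA-binding rings, lsm12b was the 1 detected on at least 5 arrays, with -0.09, -0.07 and 0.03. The spots of lsm12a, lsm14b and hnrnpul1 lay below 0 at 3 h at an unadjusted p under 0.05, but lsm12a and lsm14b had no injured side above background at that time.

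Spots of the same gene often disagreed. Of 26 member genes with at least 2 detected spots, 13 had all of them on 1 side of 0 at 3 h, 10 at 24 h and 14 at 168 h. The median SD between spots of a gene was 0.206, 0.252 and 0.243, and the SD between these genes was 0.19, 0.264 and 0.349. The median SD between spots was thus near the SD between genes at 3 and 24 h, and below it at 168 h. Many of these SDs rest on 2 spots, and the median of such SDs tends to fall short of the spread. The values at 168 h therefore do not settle whether spots of a gene differed less than genes did.

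The dye term was the one term of the fit with calls after adjustment. The Cy5 over Cy3 term passed an adjusted p of 0.05 for 8 of 63 translation genes and 5 of 60 splicing genes, where 11.1% of all spots did. The largest among translation genes was that of eif4e1b, and the largest among splicing genes that of snrpd2. Since sham RNA was in Cy5 on 6 of 9 arrays, such genes depend on the dye term.

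Other genes of the same pathways were read as lists. Of 11 further translation genes the medians were 0.09, 0.22 and 0.21, with 6, 8 and 8 above 0. The 12 aminoacyl-tRNA synthetase genes, which charge tRNAs, had medians of 0.14, 0.03 and 0.08. Another 33 splicing genes had medians of 0.00, 0.06 and -0.13, with 17, 19 and 13 above 0, and so did not share the 24 h value of 0.22. None of these genes passed an adjusted p of 0.05. The 68 genes for cytosolic ribosomal proteins had medians of 0.05, 0.39 and 0.52, with 48, 64 and 65 above 0, and 23 of them had an unadjusted p under 0.05 above 0 at 168 h, against 237 of 5546 genes in all. On the control arrays their medians were -0.23 and -0.38 after the dye effect was subtracted, and -0.00 and -0.14 before. The values of eef1a1l1 and eef2b at 24 and 168 h are on the same side of 0 as these medians, while the 44 initiation factor genes had medians of 0.02, 0.02 and 0.07.

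Markers of cell types in the eye were read on the same arrays. The rod markers (5 of 10 on the array) had medians of -0.12, -0.55 and -0.74 at 3, 24 and 168 h. Their summed signal at 24 h was 74160 to 86693 in injured eyes, against 91952 to 125258 in sham eyes, and at 168 h it was 34487 to 57010 in injured eyes, against 53108 to 155035 in sham eyes. The epithelial markers (6 of 7 on the array) had medians of 0.05, 0.88 and 0.40. Their summed signal at 24 h was 8064 to 15456 in injured eyes, against 3813 to 11511 in sham eyes, and at 168 h it was 6526 to 14176 in injured eyes, against 4104 to 15635 in sham eyes. Both lists overlap between the groups at 168 h, and at 24 h the rod list does not. The share of all genes or lists that separate in this way was not counted. These sums still hold the dye effect and are led by the brightest genes. Before removal of the dye effect the rod median on array 1 of 24 h was -0.01.

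Cone markers (6 of 10 on the array) had medians of 0.01, -0.16 and -0.53, with a summed signal at 168 h of 23442 to 58027 in injured eyes, against 29167 to 59912 in sham eyes. Muscle markers (6 of 10) had medians of 0.15, 0.19 and 0.08, with 15561 to 57269 in injured eyes at 168 h, against 21094 to 33358 in sham eyes. Ganglion cell markers (4 of 6) had medians of -0.18, -0.32 and 0.17, leukocyte markers (5 of 6) of 0.05, 0.21 and 0.02, and Mueller glia markers (4 of 5) of -0.03, 0.20 and -0.04. The Mueller glia genes were opposed at 168 h, with 0.85 for apoeb, -0.83 for glula, -0.10 for cahz and 0.02 for rlbp1a. Lens markers (4 of 7), of a tissue that was removed, were each detected in both channels on at most 4 of 9 arrays and had medians of 1.01, -0.15 and -0.34. At 3 h their median was -0.18, 2.74 and 0.28 on the arrays, and their summed signal was 859 to 15518 in injured eyes, against 573 to 1475 in sham eyes. Array 2 of 3 h thus stood apart in this list. Of the other markers, gnat2, gap43, ckma and tnni2a.4 were detected in both channels on no array. The part of these cell types in the values of the translation and splicing genes was not tested.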

How the data were processed

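Per the file headers, the deposited scanner files give foreground and background intensity per spot in Cy5 and Cy3, not normalised. The authors also deposited a table of log2 values per spot and time, for which limma, without a version, is listed in the submitters' processing notes. Injured RNA is Cy5 on all arrays per the labels, whereas the array names give Cy5 as sham on 6 of 9. The authors' log2 table follows the array names, and so did the orientation used here. Its values correlated with the fitted ones across spots at r = 0.681, 0.69 and 0.697 at 3, 24 and 168 h.

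Intensity was corrected with normexp (offset 50) and normalised by loess within arrays in limma 3.58.1 under R 4.3.3. The 9 injured arrays were fitted together with 1 coefficient per time and 1 dye effect, followed by eBayes and Benjamini-Hochberg adjustment over 14067 zebrafish spots. The fit left 5 residual degrees of freedom and added 9.99 prior ones, and the median SE was 0.339 for a time. The control arrays stayed outside the fit. The fit was tested on simulated data whose planted changes were larger than any fitted ratio of a member given here. That test does not show how often changes of the sizes given here would be called.

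All 291 member spots were named through RefSeq. The members, lists and markers were chosen with earlier results of these data known. At each time the 3 genes with the smallest p on either side of 0 in each group, among those detected in both channels on at least 2 of 3 arrays, are described, besides listed genes of each role. Genes outside that rule, such as eef2k and snrpa1, were chosen after their values were seen. P-values measure the spread between pools, and the number of arrays limits precision.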

Additional observations from a re-analysis of the deposited data

How the results depend on the processing

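The ratio of each array already pairs an injured with a sham pool. No further pairing was possible because array numbers pair nothing across times. The scan date and slide were not run as a block because the file headers give neither. Of the recomputed group medians and counts 228 were taken as unchanged, and of the values of single named genes 559 were. A group median was unchanged when it moved by less than the SD between the arrays of its time, whatever its side. Some of these changed side: translation minus splicing at 3 h went from 0.03 to -0.07 without array 3 of that time. The exceptions among medians and counts follow, and the cause was not tested. For translation factors, centring arrays on their median gave 0.101 at 24 h and 0.174 at 168 h. For splicing factors at 24 h (0.22), no background subtraction gave 0.144, leaving out dim spots 0.150, averaging all spots of a gene 0.155 and the authors' deposited values 0.068, and leaving out single arrays gave 0.156 to 0.231. The translation minus splicing median at 24 h (-0.19) was -0.0763 without dim spots and -0.0617 in the authors' table, and -0.210 to -0.101 with single arrays left out. At 168 h (0.06) it was -0.0948 without dim spots. Over all zebrafish spots, the count called by limma at an adjusted p under 0.05 at 168 h (0) was 5 with no background subtraction, 1 with median centring, 2 without dim spots and 0 to 10 with single arrays left out. The counts of 9 elongation spots and 5 spots of initiation factor 3, whose alternatives were chosen after seeing the data, ranged over 2 to 9 and 3 to 5 with single arrays left out, and the lowest elongation count came without array 2 of 168 h. Signs turned for 4 named genes: eif4a2 at 3 h (-0.148 to 1.07 with single arrays left out), eif3s10 at 3 h (-0.0417 with no background subtraction, -0.0833 to 0.615 with single arrays left out), eif4e2rs1 at 24 h (0.304 in the authors' deposited table), and eif4e1b (0.309 at 3 h and 0.356 at 168 h with no dye term or with the arrays of the time alone, and -0.554 to 0.0549 at 168 h with single arrays left out). Of 36 named gene and time pairs, 3 had the opposite sign in the authors' deposited table: eif4e1b at 3 h (0.193) and 168 h (0.189) and eif4e2rs1 at 24 h.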
